A study of Mus musculus with 16 samples.

Results

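The 26 genes described here carry GABA signalling in the brain: 9 GABA-A receptor subunits, 2 GABA-B receptor subunits, 4 genes of GABA synthesis and vesicle loading, 3 of its uptake and breakdown, 6 of the inhibitory postsynapse and receptor trafficking, and 2 chloride cotransporters. They were taken by gene symbol from a table of raw counts with 49315 genes. All 26 were found, and all 26 were among the 17469 genes that passed the filter on low counts. The table holds hippocampal RNA sequencing of 16 mice, 1 library per animal, in 4 groups of 4. Wild type (WT) and Kcna1 knockout (KO) mice were kept on a standard diet or on a ketogenic diet, which is rich in fat and poor in carbohydrate. Loss of Kcna1, a potassium channel subunit that limits neuronal firing, is used to model epilepsy, so the seizure-prone knockout is set against its wild type on each diet and each diet against the other within a genotype. The labels give genotype, diet and hippocampus. The kind of Kcna1 allele, the strain, age and sex, and how long the diet was fed were not given in the sources used here.

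GABA is the main inhibitory transmitter of the adult brain. It is made from glutamate by the decarboxylases encoded by Gad1 and Gad2, loaded into vesicles by the transporter encoded by Slc32a1, and acts on GABA-A receptors, which are chloride channels built of several subunits, and on slower G-protein-coupled GABA-B receptors. Astrocytes and neurons then take it up and break it down. How strongly a GABA-A receptor inhibits depends on chloride inside the neuron, which is lowered by KCC2 (Slc12a5) and raised by NKCC1 (Slc12a2).

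Total counts per library were 13440230 to 22309504. Kcna1 lay between 107 and 130.1 CPM (counts scaled to a common effective library size) in the 8 WT libraries and between 43.4 and 47.2 in 7 KO libraries, but at 82.0 in the library labelled KO on the standard diet and named KC888LL. That library therefore stands between the genotypes in the targeted gene, its label was kept, and results that turn on it are given with and without it. Markers of the labelled tissue were present: all 6 pan-neuronal, 4 CA1 pyramidal, 7 dentate granule and 12 interneuron genes were above 0 in every library. Sex-linked expression differed within 3 of the 4 groups: Ddx3y, on the Y chromosome, was at 56.5 to 65.1 CPM in KC890RL (WT) and KC872RL and KC873RR (KO) on the standard diet and in KC846L (WT) on the ketogenic diet, and at 1.63 or less in the other 12 libraries. Gfap, the intermediate filament of astrocytes, was at 294 to 390.4 CPM in WT and 288 to 2327 CPM in KO libraries.

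RefSeq (build GRCm38.p6) holds a promoter window for 22 of the 26 genes. Shown here, on the plus strand and up to the first base that an annotated exon covers, are the stretches before the starts of 4 genes to which the values below return: the 2 GABA-producing decarboxylases, and the 2 genes, an astrocytic GABA transporter and the chloride exporter, with the smallest unadjusted p for a relation to Gfap among the KO libraries. They lie at chr2:70561879-70562041 (Gad1, within the span annotated to the gene, before an internal exon), chr2:22622077-22622204 (Gad2), chr6:114130991-114131240 (Slc6a11) and chr2:164960596-164960801 (Slc12a5). Capitals mark matches on either strand to 4 motifs, none of which overlapped another. The letters searched were TATAAA for the TATA box and CCAAT for the box of that name. They were GGGCGG for the GC box and, for the cyclic AMP response element, TGACGTCA.
Gad1: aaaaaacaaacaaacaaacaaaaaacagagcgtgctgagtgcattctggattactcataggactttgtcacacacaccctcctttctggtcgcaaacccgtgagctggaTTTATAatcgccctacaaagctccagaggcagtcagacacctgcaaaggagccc
Gad2: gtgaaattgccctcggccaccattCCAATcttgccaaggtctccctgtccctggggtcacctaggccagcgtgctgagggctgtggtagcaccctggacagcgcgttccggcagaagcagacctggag
Slc6a11: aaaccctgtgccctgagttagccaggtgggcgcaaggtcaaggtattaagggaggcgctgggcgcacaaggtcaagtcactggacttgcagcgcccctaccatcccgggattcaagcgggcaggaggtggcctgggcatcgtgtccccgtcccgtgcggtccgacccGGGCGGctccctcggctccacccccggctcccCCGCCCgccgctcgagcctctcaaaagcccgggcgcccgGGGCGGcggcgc
Slc12a5: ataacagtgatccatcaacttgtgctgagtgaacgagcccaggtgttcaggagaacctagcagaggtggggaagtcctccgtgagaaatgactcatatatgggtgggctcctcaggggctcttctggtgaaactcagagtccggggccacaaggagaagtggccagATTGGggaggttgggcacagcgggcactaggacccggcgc
The Gad1 stretch held 1 TATA box, on the other strand, which 7.78% of 32851 mouse promoter stretches of that length also hold. The stretches compared are the first bases of each promoter window, not trimmed at exons, so a shorter stretch leaves out the bases next to the start. The Gad2 stretch held 1 CCAAT box (17.2% of stretches of its length), Slc6a11 held 3 GC boxes (32.7%), and Slc12a5 held 1 CCAAT box on the other strand (29.3%). None of the 4 stretches held the cyclic AMP response element, which 0.259% to 1.55% of stretches of these lengths hold. The 4 genes share none of these matches except the CCAAT letters in Gad2 and Slc12a5, and a match is a description of letters, not a site in use.

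Per kilobase of annotated exon, the 26 genes spanned a wide range of levels. Gabarapl1, a ubiquitin-like protein of autophagy and receptor trafficking, had the highest mean over the 16 libraries at 226 CPM per kb. It was followed by the GABA-B subunit Gabbr1 at 119, the chloride exporter Slc12a5 at 74.9, the GABA-A subunit Gabra5, a mark of hippocampal extrasynaptic receptors, at 63.4, and the other GABA-B subunit Gabbr2 at 52.1. In the middle stood the decarboxylases Gad1 at 46.2 and Gad2 at 35.3 CPM per kb, the vesicular transporter Slc32a1 at 28.5, and the astrocytic transporter Slc6a11 at 26.1. The lowest were Slc12a2 at 8.13, the extrasynaptic subunit Gabrd at 5.34, Gabrg1 at 2.70 and Gabrg3 at 2.11 CPM per kb. The chloride exporter thus exceeded the importer in level per length in these whole-tissue libraries, which hold glia as well as neurons. Exons of other genes on the opposite strand cover 28.3% of the exonic bases of Gabarapl1, 24.9% of Slc32a1, 17.7% of Aldh5a1, 4.98% of Gabra5 and 3.92% of Gphn. The use of strand in counting was not given in the sources used here. How far these overlaps affect the levels of those genes is therefore not known, and the shares of bases do not measure it.

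**Figure D1:**
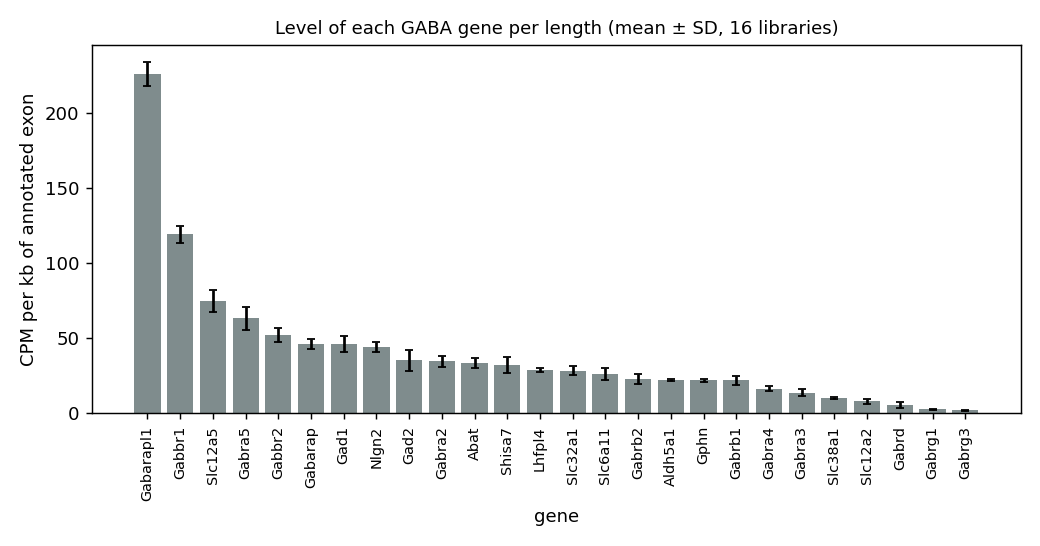
Level of each of the 26 GABA genes in CPM per kilobase of annotated exon (vertical axis, linear from 0), as the mean over 16 libraries with bars of 1 SD. Gabarapl1 and Gabbr1 stand above the rest at 226 and 119, and Gabrg1 and Gabrg3 are the lowest at 2.70 and 2.11.

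Across the 7 comparisons of the 16 libraries, 1 of the 26 GABA genes passed the test in edgeR. Slc12a2, the chloride importer, was lower on the ketogenic than on the standard diet in knockout mice, and in the mean of both genotypes. In KO against WT, 0 of 26 passed an adjusted p of 0.05 on the standard diet (0.00572% of all tested genes passed), 0 of 26 on the ketogenic diet (0.0172%) and 0 of 26 in the mean of both diets (0.0973%) by edgeR. With the ketogenic against the standard diet, 1 of 26 passed in KO (1.16%), 0 in WT (0.0114%) and 1 in the mean of both genotypes (0.899%). The interaction of genotype and diet passed in 0 of 26, as in 0% of all genes. DESeq2 also gave 0 of 26 on the standard diet (1.03% of all genes), in the diet comparison of WT (0.0687%) and for the interaction (0.0401%), as did limma-voom (0.0114%, 0% and 0%). DESeq2 gave 1 of 26 for KO against WT on the ketogenic diet, Gad2, against 0.305% of all genes, and 4 of 26 in the mean of both diets, Gad2, Gad1, Gabrb1 and Gabrb2, against 2.38%. limma-voom gave 0 of 26 with the ketogenic diet (0.0286% of all genes) and, for that mean, 1, which was Gad2, against 0.218%. For the ketogenic against the standard diet, Shisa7 joined Slc12a2 in KO and in the mean of both genotypes with DESeq2, against 4.2% and 2.47% of all genes. With 1 surrogate variable, an axis of variation estimated from the counts, Shisa7 joined it in both (2.54% and 1.69% of all genes), and Gabbr2 in KO. That axis is not independent of genotype: it was negative in all 8 WT libraries and positive in 5 KO libraries, which are the 5 highest in Gfap.

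At an unadjusted p under 0.05, which is no call, the share of GABA genes is given beside that of all tested genes. KO against WT gave 10 of 26 on the standard diet (38.5%, against 14.3% of all tested genes), 7 on the ketogenic diet (26.9% against 9.22%) and 12 in the mean of both diets (46.2% against 15.8%). The diet comparison gave 8 in KO (30.8% against 16.9%), 1 in WT (3.85% against 5.46%) and 5 in the mean of both genotypes (19.2% against 14.4%). The interaction gave 0 of 26, against 7.48% of all genes. The differences went both ways: on the standard diet 11 genes were higher and 15 lower in KO, with a median log2 fold change of -0.01 against 0.00 for all genes, and on the ketogenic diet 15 were higher and 11 lower, with medians of 0.00 and 0.00. The list as a whole had no common direction in these 2 comparisons.

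**Figure D2:**
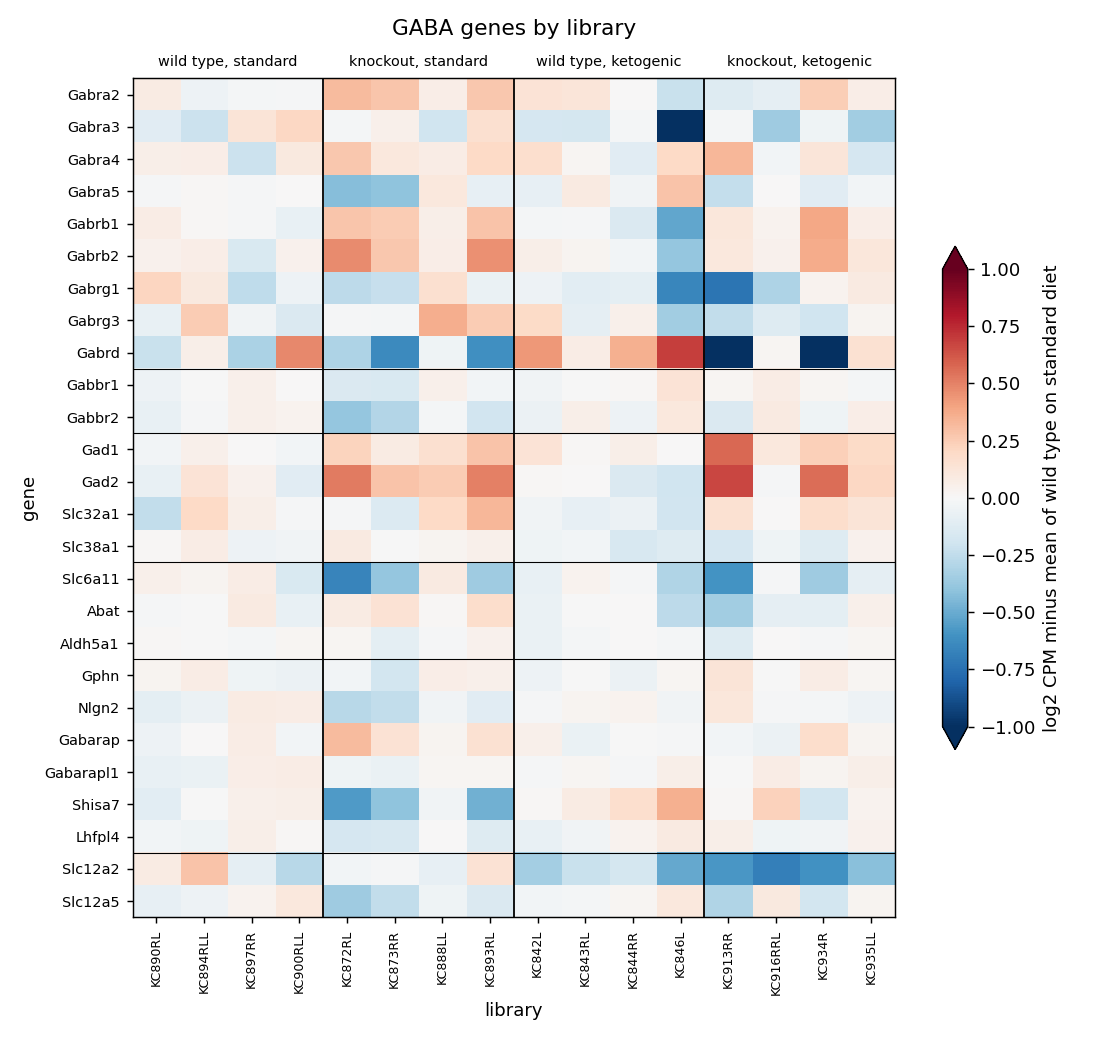
Log2 CPM of the 26 GABA genes (rows, ordered by role) in each of the 16 libraries (columns, by group), minus the mean of the 4 wild type libraries on the standard diet. Red is higher and blue lower, and the scale ends at 1 in either direction. Slc12a2 is blue in all 8 ketogenic libraries, Gad2 is red in 7 of the 8 knockout libraries, and KC888LL is paler than the other 3 knockout libraries on the standard diet in Shisa7, Slc6a11, Gabbr2 and Gabrb2.

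The 4 genes of synthesis and vesicle loading were all higher in KO than in WT on both diets in the fit, though none passed the adjusted test in edgeR with all 16 libraries. Gad2, which makes GABA at nerve endings, lies at chr2:22622205-22693874. On the standard diet it was at 173, 200.3, 188 and 168 CPM in WT and at 261, 221, 217 and 258 CPM in KO. Every KO library was above every WT library. Under ketogenic feeding WT libraries were at 183, 182, 165 and 159 CPM and KO libraries at 289, 180.3, 268 and 210.0 CPM. There the groups overlapped through KC916RRL, the KO library at 180.3. For Gad2 the log2 fold change was 0.39 ± 0.12 (SE, n = 4 per group) with the standard diet (edgeR, adjusted p = 0.202), and 0.46 ± 0.12 with the ketogenic diet (edgeR, adjusted p = 0.378). In the mean of both diets it was 0.43 ± 0.08 (n = 8 per genotype; edgeR, adjusted p = 0.0689), and 5 of 25 other settings called it: DESeq2, limma-voom, and the fits without KC888LL (adjusted p = 0.0118), KC916RRL (0.00759) or KC935LL (0.0425). Over the 25 settings the adjusted p of Gad2 ran from 0.000498 to 0.814 and its log2 fold change from 0.24 to 0.48. The smallest value, 0.24 ± 0.06, came from the fit with 1 surrogate variable (edgeR, adjusted p = 0.448), whose axis is tied to genotype and Gfap as given above.

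Gad1, the decarboxylase spread through the interneuron soma, was given by library after its values were seen. On the standard diet it was at 315, 332, 321 and 315 CPM in WT and at 373, 340.0, 358 and 391 CPM in KO, without overlap. With the ketogenic diet WT libraries stood at 353, 323, 333 and 321 CPM and KO libraries at 478, 345, 378 and 365 CPM, and KC916RRL, at 345, again fell below the highest WT library. The log2 fold change in the mean of both diets was 0.21 ± 0.06 (edgeR, adjusted p = 0.102), and 3 of 25 settings called it: DESeq2 (adjusted p = 0.0259) and the edgeR fits without KC888LL (adjusted p = 0.0402) or KC916RRL (0.0481). With 1 surrogate variable it was 0.10 ± 0.05. Slc32a1, the vesicular GABA transporter, was 78.1 ± 9.83 CPM (mean ± SD, n = 4) in WT and 83.4 ± 12.1 in KO on the standard diet, and 72.9 ± 3.41 and 84.2 ± 4.32 on the ketogenic diet. Slc38a1, a glutamine transporter that supplies the transmitter's precursor, was 178 ± 7.27 and 183 ± 5.27 CPM on the standard diet. Interneuron markers ran in the same direction: their 12 genes summed to 432 to 507 CPM in WT and 489 to 679 in KO on the standard diet, and to 391.9 to 470.5 and 469.9 to 596 on the ketogenic diet, with 8 of 12 higher in KO and 0 called on each diet. Of the 6 striatum markers, 5 were higher in KO on the standard diet and 6 on the ketogenic diet, with 0 called. They summed to 57.4 to 81.7 CPM in WT and 75.3 to 93.6 in KO with standard feeding. With ketogenic feeding the sums were 60.5 to 66.9 CPM in WT, and 113.5, 61.7, 93.8 and 55.2 in KC913RR, KC916RRL, KC934R and KC935LL. Without KC888LL 1 of 6, Drd1, was called higher in the mean of both diets (4.96% of all genes). Of the 12 interneuron markers, the fit without KC888LL called Npy and Reln higher in KO in this mean. With standard feeding it called Npy and Dlx1, 1 higher and 1 lower (5.73% of all genes), and with ketogenic feeding 0 of 12. In bulk tissue more cells of a type and more RNA per cell cannot be told apart. The part of interneuron number or striatal tissue in the Gad1 and Gad2 values was not tested.

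Among the 9 GABA-A subunits, none passed in any of the 7 contrasts in edgeR with all 16 libraries, while DESeq2 called Gabrb1 and Gabrb2 in the mean of both diets, and on the standard diet 5 were higher and 4 lower in KO. Gabrb1 (chr5:71658113-72149037), a β subunit, had the smallest p of its role. In WT it was at 306, 293, 289 and 276 CPM on the standard and 286, 288, 262 and 203 CPM on the ketogenic diet, and in KO at 351, 347, 303 and 355 CPM and at 315, 298, 379 and 305 CPM. All 4 KO libraries were above all WT libraries with the ketogenic diet, and on the standard diet KC888LL, at 303, lay below the highest WT library. Its log2 fold change in the mean of both diets was 0.27 ± 0.07 (edgeR, adjusted p = 0.101), and without KC888LL 0.29 ± 0.07 (edgeR, adjusted p = 0.0218), with 2 of 25 settings calling it and a range of 0.0188 to 0.814.

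Gabrb2 (chr11:42419757-42629028), the β subunit common in synaptic receptors, was at 137, 139, 119.8 and 138 CPM in WT and at 185, 161, 139 and 183 CPM in KO on the standard diet. Of the KO libraries only KC888LL, at 139, did not exceed every WT library, being level with the highest of them. The ketogenic groups were at 139, 136, 131 and 102 CPM in WT and at 144, 138, 173 and 144 CPM in KO, with overlap. On the standard diet the log2 fold change was 0.32 ± 0.10 (edgeR, adjusted p = 0.208), and 0.40 ± 0.10 without KC888LL (edgeR, adjusted p = 0.0275).

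The α subunits differed among themselves. Gabra2, frequent at synapses on the pyramidal cell axon, was 251 ± 10.4 CPM in WT and 295 ± 22.1 in KO on the standard diet and 254 ± 28.0 and 256 ± 31.3 on the ketogenic diet. Gabra4, the usual partner of the δ subunit in dentate granule cells, was 94.0 ± 9.04 and 105 ± 6.40 CPM on the standard diet, and Gabra3 was 58.7 ± 7.98 and 58.5 ± 6.09. Gabra5 was nearly constant in WT on the standard diet, at 193 to 197 CPM, and spread from 145 to 209.5 CPM in KO. The 4 KO libraries on the standard diet lay on both sides of the WT range of Gabra5, with KC888LL the highest.

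Of the γ and δ subunits, Gabrg1 was 23.2 ± 3.17 CPM in WT and 21.7 ± 3.00 in KO on the standard diet, and Gabrg3 was 25.3 ± 3.27 and 28.0 ± 3.75. Gabrd, which forms extrasynaptic receptors of dentate granule cells, had the largest SE of the 26 genes on both diets, and its libraries are given after its values were seen. Under the ketogenic diet it was at 21.5, 16.7, 20.4 and 25.7 CPM in WT and at 5.15, 16.2, 7.96 and 17.7 CPM in KO. KC913RR and KC934R were far below the other libraries of that diet, while KC916RRL and KC935LL lay close to the lowest WT library. On the standard diet WT libraries were at 13.6, 16.6, 12.8 and 22.2 CPM and KO libraries at 12.8, 10.3, 15.5 and 10.4 CPM. The log2 fold changes, -0.85 ± 0.31 in the ketogenic groups (edgeR, adjusted p = 0.461) and -0.41 ± 0.31 in the standard-diet groups (edgeR, adjusted p = 0.594), did not pass. The 7 dentate granule markers summed to 388 to 651 CPM in WT and 376 to 533 CPM in KO on the ketogenic diet, with 4 higher and 3 lower in KO. The 7 thalamus markers summed to 57.7 and 50.2 CPM in KC913RR and KC934R, and to 71.8 and 90.3 CPM in KC916RRL and KC935LL, so they were lower in the KO libraries where Gabrd was lower. Their part in the Gabrd values was not tested.

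Both GABA-B subunits were tested, and neither passed in the edgeR fit of the 4 groups with all 16 libraries. Gabbr1, which binds the ligand, was 926 ± 25.7 CPM in WT and 885 ± 61.0 in KO on the standard diet, and 945 ± 51.4 and 942 ± 23.9 on the ketogenic diet. Gabbr2 (chr4:46662305-46991873), which couples the receptor to its G protein, was at 342, 358, 373 and 369 CPM in WT and at 275, 294, 356 and 315 CPM in KO on the standard diet. The KO libraries other than KC888LL were below every WT library. The ranges of the ketogenic groups, 346 to 388 CPM in WT and 326 to 384 CPM in KO, overlapped. In the fit its log2 fold change in the standard-diet groups was -0.22 ± 0.07 (edgeR, adjusted p = 0.216), and -0.30 ± 0.07 without KC888LL (edgeR, adjusted p = 0.0199). With the ketogenic against the standard diet in KO it was 0.21 ± 0.07 (edgeR, adjusted p = 0.154), and 0.29 ± 0.07 without that library (edgeR, adjusted p = 0.0215). It was also called with all 16 libraries and 1 surrogate variable (0.22 ± 0.06; edgeR, adjusted p = 0.0450), the range over 26 settings being 0.0215 to 0.898.

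Of the 3 genes of uptake and breakdown, none passed with all libraries. Slc6a11 (chr6:114131241-114249952) encodes GAT-3, the GABA transporter of astrocytes. On the standard diet it was at 152, 149, 154 and 132 CPM in WT and at 92.6, 112, 156 and 114 CPM in KO. KC888LL was the highest of these 8 libraries and the other 3 KO libraries the lowest. Ketogenic WT libraries were at 139, 149.9, 145 and 118 CPM and ketogenic KO libraries at 96.8, 145, 114 and 138 CPM. In the standard-diet groups its log2 fold change was -0.31 ± 0.15 (edgeR, adjusted p = 0.353), and -0.47 ± 0.12 without KC888LL (edgeR, adjusted p = 0.0392).

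Abat (chr16:8513429-8621568) encodes GABA transaminase, the first step of GABA breakdown, and had the smallest p of its role in the diet comparison of KO. It was at 278, 292, 266 and 298 CPM on the standard diet and at 207, 247, 246 and 272 CPM on the ketogenic diet in KO, with KC935LL, at 272, above KC888LL. In WT the values were 261, 263, 281 and 250.1 CPM on the standard diet and 251, 263, 264 and 219 CPM on the ketogenic diet. The log2 fold change was -0.22 ± 0.08 in KO (edgeR, adjusted p = 0.152) and -0.08 ± 0.08 in WT (edgeR, adjusted p = 0.995). Aldh5a1, the succinic semialdehyde dehydrogenase that completes the breakdown, was at 114 to 129 CPM over all 16 libraries, and its log2 fold change lay between -0.03 and 0.01 in every one of the 7 contrasts.

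Of the 6 genes of the postsynapse and of receptor trafficking, 0 passed in the edgeR fit of the 4 groups with all libraries, and 5 were lower and 1 higher in KO on the standard diet. Shisa7 (chr7:4825552-4844696), an auxiliary protein of GABA-A receptors, had the smallest p. It was at 203, 218, 227 and 227 CPM in WT and at 148, 165, 213 and 156 CPM in KO on the standard diet. KC888LL was within the WT range and the other 3 KO libraries were below it. Ketogenic WT libraries were at 220.2, 231, 246 and 279 CPM and KO libraries at 219.7, 256, 193 and 224 CPM.

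For Shisa7 the log2 fold change of KO against WT was -0.36 ± 0.11 with the standard diet (edgeR, adjusted p = 0.202), and -0.49 ± 0.09 without KC888LL (edgeR, adjusted p = 0.0051). With the ketogenic diet that change was -0.13 ± 0.11 (edgeR, adjusted p = 0.727). The diet comparison in KO gave 0.39 ± 0.11 (edgeR, adjusted p = 0.0844), and 0.52 ± 0.09 without KC888LL (edgeR, adjusted p = 0.00426), with adjusted p of 0.00426 to 0.815 over 26 settings. Of these 3 called it, and the other 2 used all 16 libraries: DESeq2 (adjusted p = 0.0191) and edgeR with 1 surrogate variable (adjusted p = 0.0311). The interaction of genotype and diet did not pass for Shisa7, with or without that library (edgeR, adjusted p = 0.754 and 0.261), so a difference between the diets in the effect of genotype was not shown.

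Nlgn2 (chr11:69823122-69837784), the adhesion protein of inhibitory synapses, was at 246, 253, 277 and 276 CPM in WT and at 216, 222, 256 and 243 CPM in KO on the standard diet. Its ketogenic libraries were at 261, 268, 269 and 257 CPM in WT and at 284, 261, 259.6 and 254 CPM in KO. KO libraries other than KC888LL were below WT on the standard diet, and the genotypes overlapped on the ketogenic diet. For Nlgn2 the fitted log2 fold change of the standard-diet groups was -0.17 ± 0.06 (edgeR, adjusted p = 0.245), and -0.22 ± 0.06 without KC888LL (edgeR, adjusted p = 0.0464). The other 4 genes of this role did not pass with or without KC888LL. Gephyrin (Gphn), the scaffold that holds the receptors, was 82.1 ± 3.58 CPM in WT and 81.0 ± 6.27 in KO on the standard diet, Lhfpl4, which anchors them at the synapse, 170 ± 5.67 and 158 ± 9.07, Gabarap, a receptor-trafficking protein, 82.3 ± 3.16 and 92.1 ± 7.65, and Gabarapl1 452 ± 25.5 and 446 ± 13.6.

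Without KC888LL Shisa7 joined Slc12a2 in the diet comparison over both genotypes (edgeR, adjusted p = 0.00847). There 2.58% of all genes passed, against 0.899% with all libraries. Without KC888LL more genes also passed in the 3 comparisons given next, among all genes as among the GABA genes. KO against WT on the standard diet then called 5 of 26 GABA genes, Shisa7, Gabbr2, Slc6a11 and Nlgn2 lower and Gabrb2 higher, while 5.73% of 17725 tested genes passed. The diet comparison in KO called 4 of 26, Shisa7, Gabbr2 and Nlgn2 higher and Slc12a2 lower on the ketogenic diet, against 6.18% of all genes. KO against WT in the mean of both diets called 7 of 26, Gad2, Gad1, Gabrb1 and Gabrb2 higher and Shisa7, Gabra5 and Slc6a11 lower, against 4.96%. In that mean the size of the difference also depended on the setting. For Slc6a11 the log2 fold change was -0.23 with all libraries, -0.32 without KC888LL and -0.04 with 1 surrogate variable (edgeR, adjusted p = 0.920). For Gabra5 it was -0.17, -0.23 and -0.06, and -0.03 in the 12 libraries without Y-linked expression (edgeR, adjusted p = 0.927). For Shisa7 it was -0.24, -0.31 and -0.15. These 3 comparisons share the remaining 3 KO libraries on the standard diet. Of the 5 calls on the standard diet each was made in this 1 of 26 other settings, with adjusted p from 0.0051 to 0.999 over those settings. In KC888LL Kcna1 lay nearer to WT than in the other 3 libraries, and Gfap was at 348 CPM there and at 611 to 2327 CPM in the other 3. Markers of microglia, the immune cells of the brain, moved with these calls in 2 of the 3 comparisons. In the mean of both diets 0 of 7 were called without KC888LL. Without KC888LL 4 of 7 (Ctss, C1qa, Csf1r and P2ry12) were called higher in KO on the standard diet and 6 of 7 lower on the ketogenic diet in KO, whereas 0 of 7 were called in either comparison with all libraries. They summed to 198 to 234 CPM in WT on the standard diet, to 439, 418 and 210.3 CPM in KC872RL, KC873RR and KC893RL, and to 204 CPM in KC888LL. The 6 pan-neuronal markers summed to 5812 to 6021 CPM in WT and 5135 to 5778 CPM in KO on the standard diet. Without KC888LL Rbfox3 was called lower in KO on that diet and in the mean, and Tubb3 higher on the ketogenic diet in KO. Of 5 tested reactive astrocyte markers, Serpina3n was called higher in KO on the standard diet, and Serpina3n, Gfap and Vim in the mean. The astrocyte marker Slc1a3 was called lower on the ketogenic diet in KO. Among thalamus markers Rgs16 was called higher in KO on the standard diet, and lower with Tcf7l2 on the ketogenic diet in KO. The part of these cell types and of thalamic tissue in these calls was not tested.

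**Figure D3:**
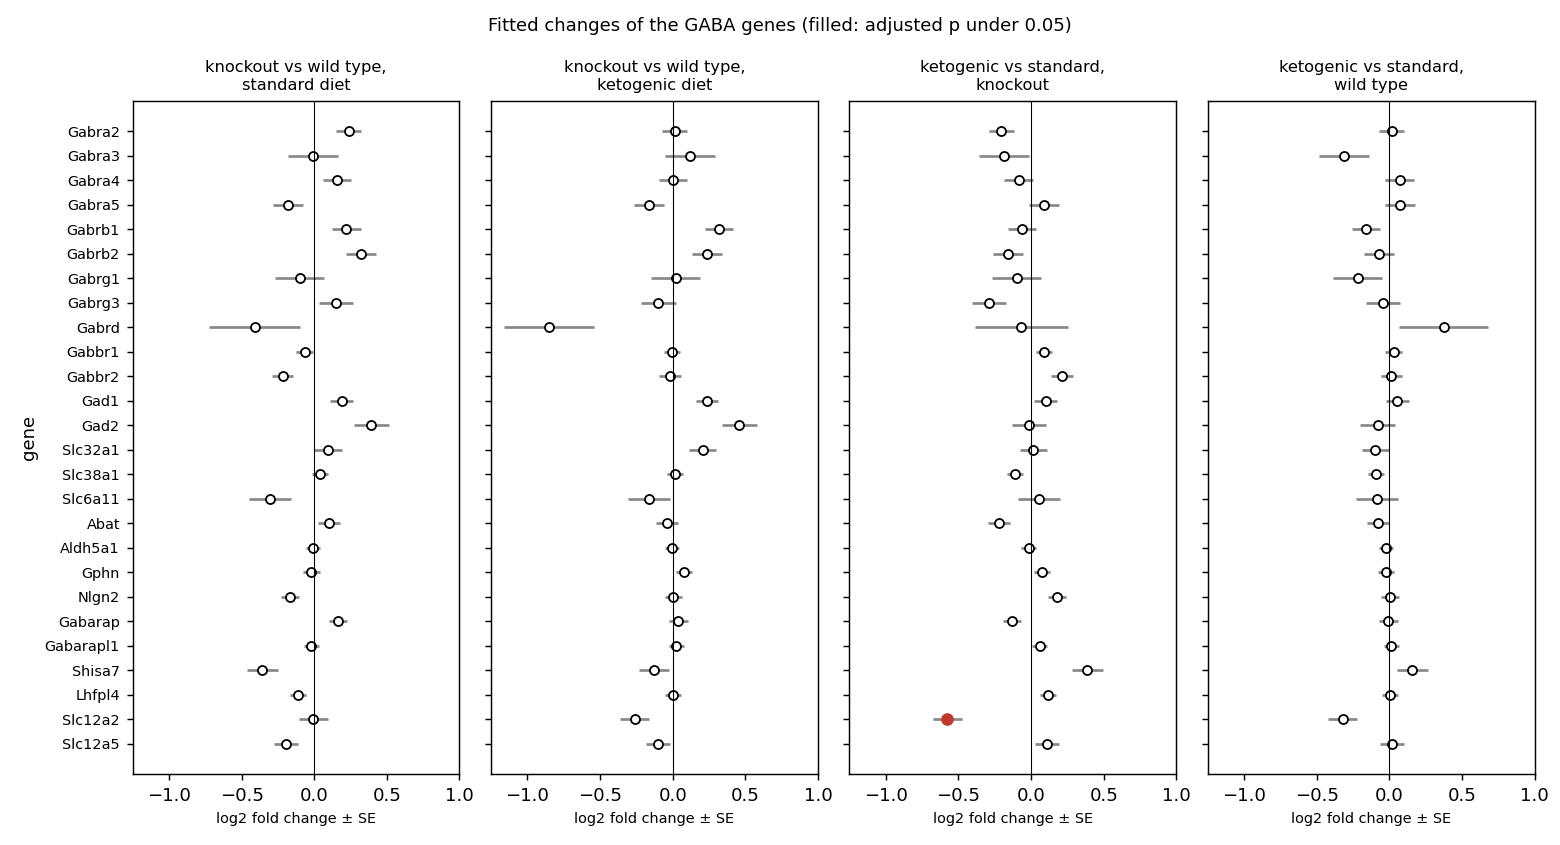
Fitted log2 fold change (horizontal axis) with bars of 1 SE for each of the 26 GABA genes in the 4 pairwise comparisons of 4 libraries per group, from all 16 libraries. Filled points passed an adjusted p of 0.05 and open points did not: Slc12a2, at -0.58 in the knockout on the ketogenic against the standard diet, is the filled one.

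Slc12a2 (chr18:57878678-57946821) encodes NKCC1, which brings sodium, potassium and chloride into cells and is also known from oligodendrocyte lineage cells, choroid plexus and astrocytes. In KO it was at 99.5, 101, 95.6 and 112 CPM on the standard diet and at 67.9, 63.3, 66.7 and 75.8 CPM on the ketogenic diet. The highest KO library on the ketogenic diet was below the lowest on the standard diet. In WT it was at 107, 123.5, 95.1 and 83.8 CPM on the standard diet and at 80.3, 87.1, 89.8 and 71.1 CPM on the ketogenic diet, with overlap. Slc12a2 fell by 0.58 ± 0.10 on the log2 scale in KO (SE, n = 4 per group; edgeR, adjusted p = 0.0144), where it ranked 27 by p among all tested genes. In the mean of both genotypes it fell by 0.45 ± 0.07 (edgeR, adjusted p = 0.00529). In WT alone the log2 fold change was -0.32 ± 0.10 (edgeR, adjusted p = 0.761), and the interaction, -0.25 ± 0.14, did not pass (edgeR, adjusted p = 0.721), so the fall was not shown to differ between genotypes. The log2 fold change of KO against WT was -0.01 ± 0.10 with standard feeding (edgeR, adjusted p = 0.984) and -0.26 ± 0.10 with ketogenic feeding (edgeR, adjusted p = 0.466).

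The call of Slc12a2 in KO held in 24 of 26 other settings, among them every fit that left out 1 library (adjusted p = 0.00568 to 0.0483). It was lost with Xist as a covariate (log2 fold change -0.63; edgeR, adjusted p = 0.0588) and in the 12 libraries without Y-linked expression (-0.60; edgeR, adjusted p = 0.245), where the size of the difference was at least as large. The 4 KO libraries on the ketogenic diet and 2 of the 4 on the standard diet belong to those 12.

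Markers of other cell types moved with Slc12a2. All 8 oligodendrocyte markers were called lower on the ketogenic diet in KO (1.16% of all genes called) and in the mean of both genotypes (0.899%). In WT all 8 were lower at an unadjusted p under 0.05 in edgeR (5.46% of all genes), with 0 called. Their summed level was 4045 to 6257 CPM in WT and 5032 to 5526 in KO on the standard diet, and 3341 to 4232 in WT and 1930 to 3624 in KO on the ketogenic diet. Mbp, which encodes myelin basic protein, was at 2040 to 2328 CPM in KO on the standard and 866 to 1606 CPM on the ketogenic diet. The 7 choroid plexus markers summed to 34.2 to 1071 CPM in WT and 48.7 to 556 CPM in KO on the standard diet, and to 30.9 to 1045 and 32.2 to 54.3 CPM on the ketogenic diet, with 0 of 7 called and Folr1, Kcnj13 and Otx2 at 0 in KC913RR. Blood markers were lower as well, with 4 of 5 called in KO, and summed to 65.8 to 113 CPM on the standard and 17.4 to 32.5 CPM on the ketogenic diet, with Hba-a2 at 0 in KC935LL. All 7 microglia markers were lower on the ketogenic diet in KO, 6 of them at an unadjusted p under 0.05 (16.9% of all genes) and 0 called. They summed to 204 to 439 CPM on the standard and 185 to 196 CPM on the ketogenic diet. The 7 thalamus markers were all lower too, with 5 at such a p and Tcf7l2 called, and summed to 65.6 to 129 CPM and 50.2 to 90.3 CPM. Of the 6 astrocyte markers 5 were lower, with 3 at such a p and 0 called, at sums of 3950.0 to 4991 CPM and 3695 to 4377 CPM. Genes of these last 3 lists were above 0 in every library. The part of these cell types in the Slc12a2 result was not tested.

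Slc12a5 (chr2:164960802-164999731), the neuronal chloride exporter, did not pass in any contrast, and its libraries are given after its values were seen. On the standard diet it was at 549, 560.3, 596 and 625 CPM in WT and at 454, 489, 565 and 527 CPM in KO. Ketogenic libraries had 570.0, 575, 589 and 627 CPM in WT and 473, 624, 511 and 593 CPM in KO. The KO libraries spread more widely than the WT libraries on both diets, and the ranges overlapped. The log2 fold change of KO against WT was -0.20 ± 0.08 with the standard diet (edgeR, adjusted p = 0.294) and -0.10 ± 0.08 with the ketogenic diet (edgeR, adjusted p = 0.724).

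Levels in whole tissue include Slc12a2 of cells other than neurons, so their ratio does not measure chloride balance in neurons. The ratio of Slc12a5 to Slc12a2 CPM, exporter over importer, is given as a description without a test. Its log2 was 2.52 ± 0.32 (SD, n = 4) in WT and 2.32 ± 0.17 in KO on the standard diet, and 2.85 ± 0.20 and 3.00 ± 0.21 on the ketogenic diet. In linear terms the 4 KO libraries had ratios of 4.56 to 5.91 on the standard diet and 6.96 to 9.86 on the ketogenic diet, which did not overlap, and WT libraries had 4.54 to 7.46 and 6.56 to 8.82, which did. The difference of the log2 means between diets was 0.69 in KO and 0.33 in WT. Within KO the fitted log2 fold change between diets was 0.11 ± 0.08 for Slc12a5 and -0.58 ± 0.10 for Slc12a2.

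**Figure D4:**
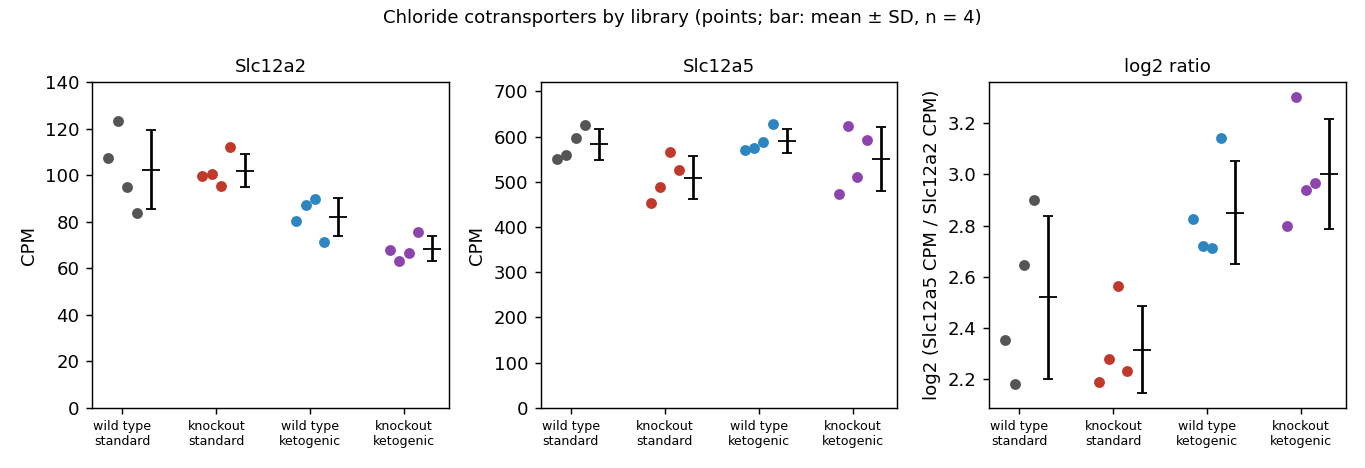
CPM of Slc12a2 and of Slc12a5 (linear axes from 0) and the log2 ratio of Slc12a5 to Slc12a2 in each library, with 4 points per group and the mean ± SD beside them. In the knockout the 4 ketogenic libraries are below the 4 standard-diet libraries in Slc12a2, at 63.3 to 75.8 against 95.6 to 112 CPM, and above them in the ratio.

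In the diet comparison of WT 12 of the 26 genes were higher and 14 lower on the ketogenic diet, and 0 passed. The smallest unadjusted p was that of Slc12a2, the only one under 0.05. Gabrd, at a log2 fold change of 0.37 ± 0.31, and Gabra3, at -0.31 ± 0.17, differed by a similar size with larger errors (edgeR, adjusted p = 0.986 and 0.951). KC846L, a WT library on the ketogenic diet with Y-linked expression, was at the edge of its group in several subunits: it was lowest in Gabrg1 (14.7 CPM against 21.4 to 22.2), Gabra2 (215 CPM against 252 to 276), Gabra3 (28.7 against 51.7 to 57.4), Gabrb1 (203 against 262 to 288) and Gabrb2 (102 against 131 to 139), and highest in Gabrd (25.7 against 16.7 to 21.5). Of these 6 gaps, that of Gabrg1 exceeded Dixon's critical value for 4 samples and the other 5 did not. Its dentate granule markers summed to 651 CPM, the highest of all 16 libraries.

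Of 45 further genes of the pathway, among them rarer receptor subunits, GABA-B auxiliary subunits, glutamine and GABA transport and metabolism, inhibitory synapse proteins and chloride regulators, 39 were tested. In KO against WT, 0 of 39 passed on either diet, with 20 higher and 19 lower on the standard diet and 17 and 22 on the ketogenic diet (edgeR). An unadjusted p under 0.05 was found for 7 on each diet, which is 17.9% of the 39 against 14.3% of all tested genes on the standard and 9.22% on the ketogenic diet. With the ketogenic against the standard diet in KO, 11 were higher and 28 lower, 10 had such a p (25.6% against 16.9% of all genes) and 1 was called, against 1.16% of all genes. In WT 14 were higher and 25 lower, and 10 had such a p (25.6% against 5.46%) with 0 called. In the mean of both genotypes 13 had it (33.3% against 14.4%), with 12 higher, 27 lower and 1 called. The call in KO was Maob. This monoamine oxidase, by which astrocytes make GABA from putrescine, was at 20.5, 20.6, 18.9 and 21.3 CPM in KO on the standard diet and at 7.56, 15.03, 14.6 and 12.1 CPM on the ketogenic diet, without overlap, and fell by 0.72 ± 0.16 on the log2 scale (edgeR, adjusted p = 0.0359). The call in the mean of both genotypes was Car2, a carbonic anhydrase that is also abundant in oligodendrocytes. It fell by 0.31 ± 0.07 on the ketogenic diet (edgeR, adjusted p = 0.0323). Its libraries were at 117 to 152 CPM in WT and 115 to 133 CPM in KO on the standard diet, and at 103 to 125 and 78.5 to 107 CPM on the ketogenic diet. Without KC888LL, 1 of 39 was called in KO against WT on the standard diet (5.73% of all genes), namely Iqsec3, an exchange factor of inhibitory synapses, at -0.29 ± 0.08 (edgeR, adjusted p = 0.0494). In the diet comparison of KO 2 of 39 were then called (6.18%), Maob again and Iqsec3, higher on the ketogenic diet at 0.36 ± 0.08 (edgeR, adjusted p = 0.0193). In the mean of both diets 2 of 39 were called in KO against WT (4.96%), the bicarbonate transporter Slc4a10 at 0.41 ± 0.10 (edgeR, adjusted p = 0.0283) and Car2 at -0.29 ± 0.07 (edgeR, adjusted p = 0.0207). In the diet comparison over both genotypes 2 of 39 were called (2.58%), Car2 again and the inhibitory adhesion protein Slitrk3 at 0.16 ± 0.04 (edgeR, adjusted p = 0.0475).

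The relation of the GABA genes to Gfap, a mark of reactive astrocytes, across the 8 KO libraries was added after the data were seen, and 0 of 26 passed the adjustment for multiple tests. Gfap was at 2327, 1340.0, 348 and 611 CPM in the KO libraries KC872RL, KC873RR, KC888LL and KC893RL on the standard diet, and at 2018, 288, 1059 and 295 CPM in KC913RR, KC916RRL, KC934R and KC935LL on the ketogenic diet. The 6 reactive astrocyte markers, Gfap among them, summed to 365 to 482 CPM in WT and 429 to 2863 CPM in KO on the standard diet and to 381 to 415 and 368 to 2397 CPM on the ketogenic diet, with Lcn2 at 0 in 5 libraries. KC872RL and KC873RR, the highest and the third highest in Gfap, are the 2 KO libraries with Y-linked expression, whose part was not tested.

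Over these 8 libraries, 8 of 26 GABA genes had a Pearson correlation of log2 CPM with that of Gfap at an unadjusted exact permutation p under 0.05, 2 positive and 6 negative, against 14% of 17468 genes. After Benjamini-Hochberg adjustment over those genes 0 of 26 and 0 of all genes passed. The median absolute r was 0.588 for the GABA genes and 0.369 for all genes. In the 8 WT libraries, where Gfap varied little, 1 of 26 (Gabrd) had such a p, against 4.88% of all genes, and the medians were 0.253 and 0.280.

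Slc12a5 had the smallest p. Its 8 KO libraries ran in exactly the reverse order of Gfap, from 454 CPM in KC872RL, the highest in Gfap, to 624 CPM in KC916RRL, the lowest. Pearson's r was -0.976 (exact permutation p = 4.96e-05, adjusted p = 0.1000) and Spearman's rho was -1, with r between -0.988 and -0.967 when 1 library was left out. Without KC872RL and KC916RRL, the libraries farthest from the median in Gfap, r was -0.986. In the 8 WT libraries r was -0.491 (exact permutation p = 0.218).

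Slc6a11, the astrocytic transporter, had r = -0.945 (exact permutation p = 0.000967, adjusted p = 0.128; rho -0.905) and r = -0.907 without those 2 libraries. In WT its r was 0.476 (exact permutation p = 0.234). Gabra5 had r = -0.877 (exact permutation p = 0.00575, adjusted p = 0.190; rho -0.905), and -0.813 without the 2 libraries. Gabbr2 had r = -0.826 (exact permutation p = 0.0171, adjusted p = 0.251; rho -0.881), and -0.672 without them. These 4 genes were lower where Gfap was higher among KO libraries.

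Gad2 had r = 0.780 (exact permutation p = 0.0285, adjusted p = 0.300; rho 0.833), and 0.717 without the 2 libraries. Gabra4 had r = 0.826 (exact permutation p = 0.00937, adjusted p = 0.213; rho 0.857), and 0.769 without them. Gabarapl1 had r = -0.784 (exact permutation p = 0.0208, adjusted p = 0.269; rho -0.857) and Gabrd r = -0.724 (exact permutation p = 0.0407, adjusted p = 0.332; rho -0.714), and without the 2 libraries r was -0.633 and -0.930. The test for a difference in correlation between genotypes was not run. The 2 highest libraries in Gfap come 1 from each diet.

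The relation was also computed with the mean of each diet taken out, over the 576 orders that keep libraries within their diet. An unadjusted exact permutation p under 0.05 was then found for 7 of 26 GABA genes, 1 positive and 6 negative, against 14.1% of all genes, and 0 of 26 and 0 of all genes passed the adjustment. Slc12a5 (r = -0.988), Gabbr2 (-0.953), Slc6a11 (-0.947) and Gabra5 (-0.874) had an exact permutation p of 0.00174, the smallest that these orders can give (adjusted p = 0.179). Gabrg3 had r = -0.867 (exact permutation p = 0.0139), where its pooled r was -0.447 (exact permutation p = 0.269). Gabarapl1 had r = -0.878 (exact permutation p = 0.0156) and Gabra4 r = 0.820 (exact permutation p = 0.0312). Gad2, at r = 0.782 (exact permutation p = 0.0642), and Gabrd, at r = -0.793 (exact permutation p = 0.0625), no longer had a p under 0.05. All 8 genes of the pooled relation kept their sign, and a single diet has 4 KO libraries, too few for a correlation of its own.

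**Figure D5:**
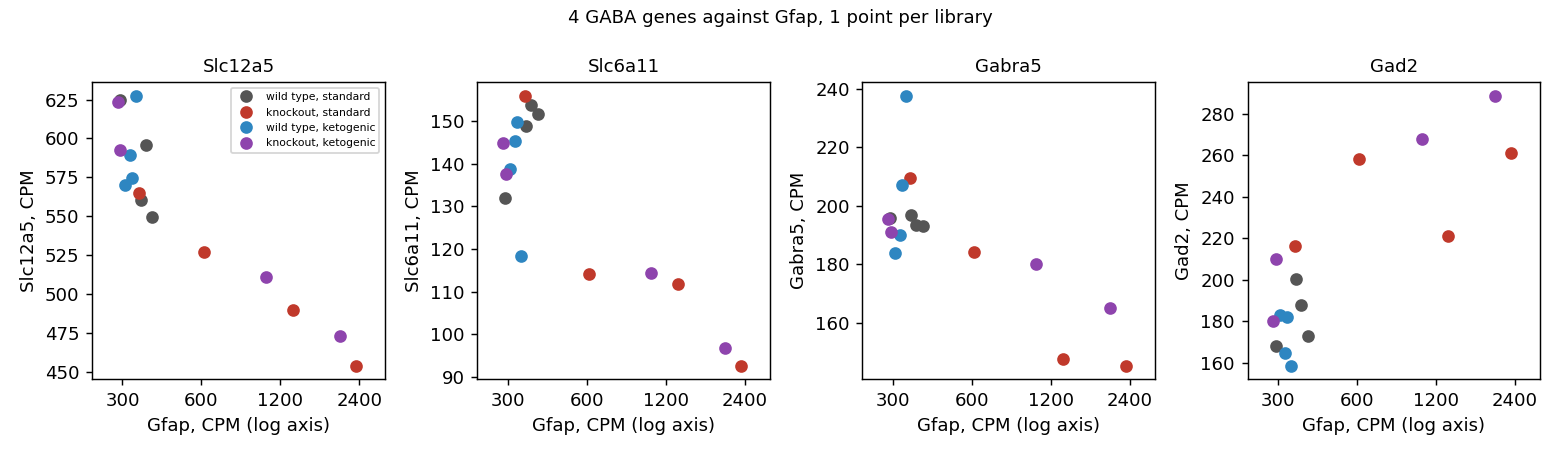
CPM of Slc12a5, Slc6a11, Gabra5 and Gad2 (vertical axes, linear and not starting at 0) against CPM of Gfap (horizontal, log axis) in the 16 libraries, 1 point per library coloured by group. Knockout libraries are spread along Gfap from 288 to 2327 CPM, with Slc12a5 between 454 and 624 CPM in the reverse order, while wild type libraries stay between 294 and 390.4 CPM of Gfap.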

How the data were processed

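RNA was sequenced from the hippocampus of 16 mice, 4 in each of 4 groups. The authors deposited 1 table of raw counts per gene. The submitters' processing notes name mm10 and DESeq2, while aligner, counter, annotation and strandedness of counting were not given in the sources used here. Columns carry an animal tag, genotype and diet but no replicate number, so each was assigned to its group only.

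Counts were fitted with edgeR 4.0.16 in R 4.3.3. filterByExpr with the groups kept 17469 of 49315 genes, with 99.8% or more of each library's total. TMM factors and a robust quasi-likelihood model with 1 coefficient per group and 12 residual degrees of freedom were used. Two-sided quasi-likelihood F tests of 7 contrasts were adjusted by Benjamini-Hochberg over all tested genes, with calls at an adjusted p under 0.05. SE was taken from the F statistic, CPM used effective library sizes, and log2 CPM a prior count of 2. The fit was tested on simulated data.

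Positions and exon lengths come from GENCODE M21 (GRCm38), which holds 48970 of the 49315 identifiers, and promoters from RefSeq. The Gfap relation used exact permutation over 40320 orders and, with each diet centred, over 576 orders within diets. Alternatives were DESeq2 1.42.0, limma-voom (limma 3.58.1), other size factors and filters, only the groups compared, Xist as a covariate, only the 12 libraries in which Xist exceeded 100 CPM and Ddx3y stayed below 10 CPM, 1 surrogate variable (sva 3.50.0), a prior count of 0.5 and each library left out in turn. Values of every library are given for members called in any contrast, with all libraries or without KC888LL in KO against WT on the standard diet or the diet comparison of KO, and for the member of smallest p in each role. Other pathway genes are named where called with all libraries, and those called without KC888LL were added after their values were seen. The members, lists and this rule were chosen with earlier results of these data known.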

Additional observations from a re-analysis of the deposited data

Results flagged for a closer look

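Within the 104 combinations of a GABA gene and a group of 4 libraries, 4 had a library whose gap to the nearest other library, divided by the range of the group, was above Dixon's critical value for 4 samples. Chance gives about 1 in 20 groups, or 5.2 here. In WT on the standard diet, KC897RR was low in Gabra4 (80.5 CPM, others 97.7 to 99.97) and in Gabrb2 (119.8 CPM, others 137 to 139). In KO on the standard diet, KC888LL was low in Gabrb1 (303 CPM, others 347 to 355). In WT on the ketogenic diet, KC846L was low in Gabrg1 (14.7 CPM, others 21.4 to 22.2).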

How the results depend on the processing

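No value reversed its sign among called results. The number of GABA genes called changed as follows, with the percentage of all tested genes called in the same setting in parentheses. In KO against WT on the standard diet it was 0 (0.00572%), and 0 to 5 when 1 library was left out (0% to 5.73%), with 5 without KC888LL. On the ketogenic diet it was 0 (0.0172%), 1 with DESeq2 (0.305%) and 0 to 1 with 1 library left out, the 1 being Gad2 without KC916RRL (0.0733%). In the mean of both diets it was 0 (0.0973%), 4 with DESeq2 (2.38%), 1 with limma-voom (0.218%) and 0 to 7 with 1 library left out, with 7 without KC888LL (4.96%). For the ketogenic against the standard diet in KO it was 1 (1.16%), 2 with DESeq2 (4.2%), 3 with 1 surrogate variable (2.54%), 0 with Xist as a covariate (0.0401%), 0 in the 12 Xist libraries (0.0169%) and 1 to 4 with 1 library left out (0.158% to 6.18%). In the mean of both genotypes it was 1 (0.899%), 2 with DESeq2 (2.47%), 2 with 1 surrogate variable (1.69%), 0 in the 12 Xist libraries (0.00563%) and 1 to 2 with 1 library left out (0.287% to 2.58%). In WT and for the interaction it was 0 in every setting run (0% to 0.0687% and 0% to 0.0401%). The cause of these changes was not tested, except that the Xist libraries leave fewer samples. Over all genes, the diet comparison in KO called 202, 677 with DESeq2, 3 in the Xist libraries and 28 to 1096 with 1 library left out. KO against WT on the standard diet called 1, 169 with DESeq2 and 0 to 1016. No paired analysis was possible because the columns carry no replicate numbers.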
